A study of Saccharomyces cerevisiae with 4 samples.

Results

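The genes of glycerol and dihydroxyacetone metabolism were followed on 4 Affymetrix yeast arrays, 2 from untreated cultures and 2 from cultures given 0.4 mM allyl alcohol for 3 h. The set is GPD1, GPD2, GPP1, GPP2, GUT1, GUT2, STL1, DAK1 and DAK2, taken by gene name from the deposited table, and these are 9 of the 5449 Saccharomyces cerevisiae genes measured. Each had 1 probe set, the group of probes that reads 1 transcript, so no choice between probe sets was needed. All cultures were the MATa haploid W1588-4c, which carries trp1-1, ura3-1, leu2-3, 112, his3-11,15, ade2-1 and can1-100 together with RAD5+. They grew at 30 °C in synthetic complete medium with 2% glucose to an optical density of about 1. For untreated cells the time of collection is not given in the sources used. The labels call the 2 arrays of a group independent experiments.

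Yeast makes glycerol from dihydroxyacetone phosphate, an intermediate of glycolysis. A glycerol 3-phosphate dehydrogenase reduces it with NADH, and a phosphatase then releases glycerol, so the route reoxidises NADH during fermentation and builds up glycerol as an osmolyte when the Hog1 kinase pathway is active. Glycerol is taken up by a proton symporter and used through glycerol kinase and a mitochondrial dehydrogenase, which are repressed by glucose. Dihydroxyacetone is toxic and is phosphorylated by its own kinases. Allyl alcohol is oxidised by alcohol dehydrogenases to acrolein, a reactive aldehyde, with NADH formed in the same step.

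The arrays did not group by label. Across genes, which are not independent replicates, Pearson's r was 0.757 between the untreated arrays and 0.740 between the allyl alcohol arrays. Across labels it reached 0.996 for untreated replicate 1 with allyl alcohol replicate 2, and 0.991 for the remaining pair, untreated replicate 2 with allyl alcohol replicate 1. The values therefore go against the labels. Whether the labels of 2 arrays were exchanged cannot be told from these data. If they were, a difference by label would not be an effect of treatment, and a difference between arrays of the same label would not be spread between replicates. Samples are named as labelled, every direction is that of the labels, and the value on every array is given. Values are log2 RMA signals, a scale on which a step of 1 is a 2-fold change. Levels of different probe sets cannot be set against each other, so genes are compared only by their differences between arrays.

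By the labels, none of the 9 genes passed the test of allyl alcohol against untreated cultures. All 9 were above background on all 4 arrays, a cutoff that 97.4% to 99.4% of all genes passed on each array. In limma, fitted over all 5449 genes with two-sided tests and Benjamini-Hochberg adjustment at 0.05, 0 of 9 passed, and 0 had an unadjusted p under 0.05. The share called over all genes was also 0%. The median log2 difference of the 9 genes was -0.03, beside -0.02 over all genes. For 8 of the 9 the difference between group means was smaller than the SD between arrays of the same label. With 2 arrays a group, an exact two-sided permutation test cannot give a p below 0.333.

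**Figure D1:**
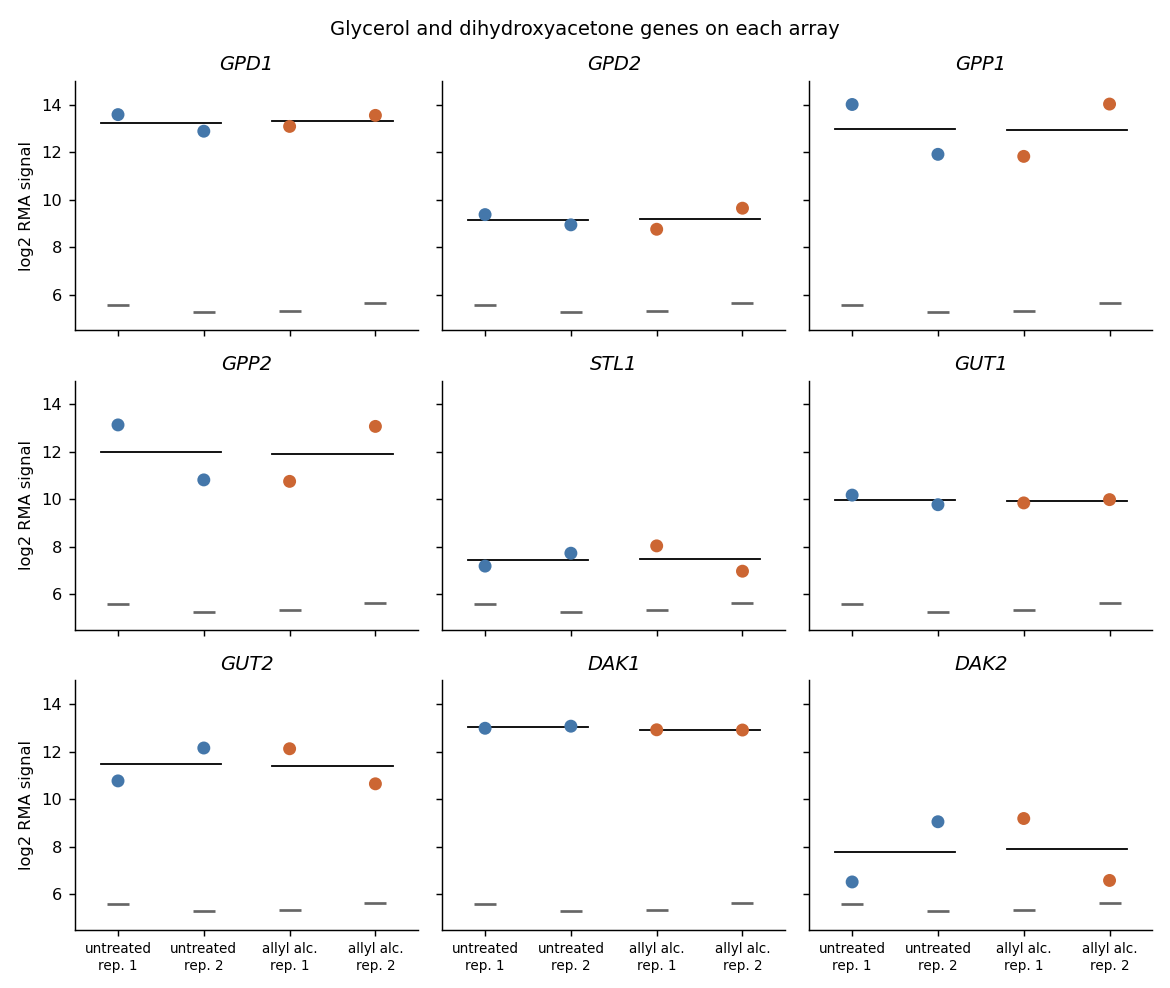
Log2 RMA signal of each gene (y axis) on the arrays labelled untreated (blue) and allyl alcohol (orange), with black lines at the group means and grey dashes at each array's background. The group means lie level in every panel, while GPP1, GPP2, GUT2 and DAK2 each show a high and a low array inside both labels.

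Glycerol synthesis begins with GPD1 (YDL022W), the NAD-dependent glycerol 3-phosphate dehydrogenase induced by osmotic stress. It had log2 signals of 13.59 and 12.89 in untreated replicates 1 and 2 and 13.09 and 13.55 on allyl alcohol replicates 1 and 2. Both allyl alcohol arrays lay between the untreated ones. The difference was 0.08 with a standard error of 0.44, between 13.24 ± 0.49 and 13.32 ± 0.33 (SD, n = 2), and its adjusted p in limma was 1. GPD2 (YOL059W), the isoenzyme associated with redox balance without oxygen, had 9.38 and 8.94 in untreated and 8.76 and 9.65 in allyl alcohol arrays. Here the allyl alcohol arrays were the outer pair. The difference was 0.04 with a standard error of 0.48, between means of 9.16 ± 0.30 and 9.20 ± 0.63 (SD, n = 2).

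The phosphatase genes of the second step stood much further apart, but inside the labels. GPP1 (YIL053W), the constitutive glycerol 3-phosphate phosphatase, had 14.01 and 11.91 on untreated replicates 1 and 2 and 11.83 and 14.03 on allyl alcohol replicates 1 and 2. Untreated replicate 1 and allyl alcohol replicate 2 were high, the other two were low, and the groups overlapped entirely. GPP2 (YER062C), the osmotically induced isoenzyme, followed the same order with 13.14 and 10.82 in untreated and 10.76 and 13.08 in allyl alcohol arrays. High and low arrays were those of GPP1. In limma the differences by label were -0.03 for GPP1 and -0.06 for GPP2, with standard errors of 1.16 and 1.24 and an adjusted p of 1 for both. Their 95% intervals ran from -3.37 to 3.30 and from -3.63 to 3.51, wide because the arrays of each label stood apart, with pooled SDs of 1.52 and 1.64. Between the arrays that resembled each other across labels, GPP1 differed by 0.02 and -0.09 and GPP2 by -0.06 and -0.06.

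Uptake and use of glycerol were read by STL1, GUT1 and GUT2. STL1 (YDR536W), the glycerol-proton symporter of the plasma membrane, had 7.19 and 7.74 in untreated and 8.05 and 6.98 in allyl alcohol arrays. It exceeded background by at least 1.34 on every array, and the allyl alcohol arrays were the outer pair. Group means were 7.46 ± 0.38 and 7.51 ± 0.75 (SD, n = 2), a difference of 0.05 with a standard error of 0.54. GUT1 (YHL032C), glycerol kinase, had 10.18 and 9.78 in untreated and 9.85 and 9.99 in allyl alcohol arrays. The untreated arrays were the outer pair, and the difference was -0.06 with a standard error of 0.35. GUT2 (YIL155C), the FAD-dependent mitochondrial glycerol 3-phosphate dehydrogenase, had 10.77 and 12.15 in untreated and 12.12 and 10.64 in allyl alcohol arrays. Untreated replicate 2 and allyl alcohol replicate 1 were high, which is the reverse of GPP1 and GPP2. By label the GUT2 difference was -0.08 with a standard error of 0.81, between 11.46 ± 0.98 and 11.38 ± 1.04 (SD, n = 2).

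The dihydroxyacetone kinase genes gave the steadiest and the most variable values of the 9. DAK1 (YML070W), the kinase gene known to be induced by salt stress, had 12.98 and 13.07 in untreated and 12.92 and 12.91 in allyl alcohol arrays. It was the only member whose groups did not overlap, lower in both allyl alcohol arrays, where 5.23% of all genes had groups that did not overlap. The difference was -0.11 between 13.03 ± 0.06 and 12.91 ± 0.01 (SD, n = 2). It was larger than the pooled SD of 0.04 between arrays of one label, but limma, which draws small variances toward those of other genes, gave a standard error of 0.31, an unadjusted p of 0.737 and an adjusted p of 1. DAK2 (YFL053W), the second dihydroxyacetone kinase, had 6.51 and 9.05 in untreated and 9.18 and 6.58 in allyl alcohol arrays. Its low values, on untreated replicate 1 and allyl alcohol replicate 2, were at least 0.93 above background. The DAK2 difference by label was 0.10 with a standard error of 1.37, between 7.78 ± 1.79 and 7.88 ± 1.84 (SD, n = 2).

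**Figure D2:**
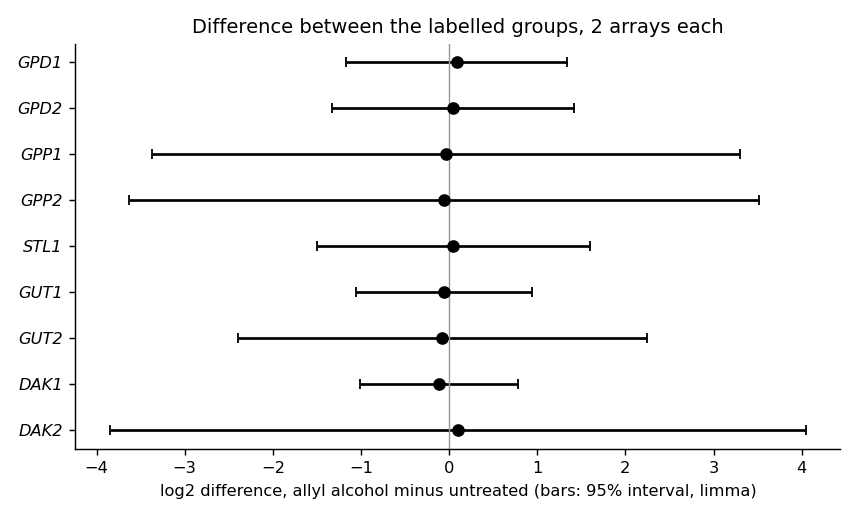
Log2 difference of each gene (x axis), allyl alcohol minus untreated with 2 arrays each; points are limma estimates and bars their 95% intervals. Every estimate lies between -0.11 and 0.10, every interval covers 0, and the intervals range in width from DAK1 (-1.01 to 0.78) to DAK2 (-3.85 to 4.05).

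Apart from DAK1, differences between the 2 arrays of a label were larger than those by label, and their signs differed between steps of the pathway. Whether they are spread between replicates or a difference of treatment cannot be told while the labels are in doubt. They compare single arrays and carry no test, and the direction of subtraction, untreated replicate 2 minus 1 and allyl alcohol replicate 1 minus 2, was picked with the values known. In that order all 4 synthesis genes were lower in both labels, and GUT2, DAK2 and, as deposited, STL1 and DAK1 were higher in both. STL1 was not higher in both after a new quantile normalization, nor DAK1 after centring arrays on their medians. As deposited, 5 of 9 members were lower in both labels and 4 of 9 higher. Over all genes 46.2% were lower in both labels and 47.4% were higher in both. GPP1 was lower by 4.28-fold inside untreated and 4.60-fold inside allyl alcohol, and GPP2 by 4.98-fold and 4.97-fold. GPD1 was lower by 1.62-fold and 1.38-fold, and GPD2 by 1.35-fold and 1.85-fold. The dehydrogenase genes thus had less than a 2-fold difference where the phosphatase genes had more than a 4-fold one.

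On the side of use, DAK2 was 5.80-fold higher inside untreated and 6.10-fold higher inside allyl alcohol in the same order of arrays. GUT2, the mitochondrial step, was 2.61-fold and 2.78-fold higher. GUT1, the kinase that precedes it, did not follow and was lower by 1.32-fold and 1.10-fold. DAK1 had log2 differences of 0.09 and 0.01, and the second of these became -0.02 when each array was centred on its median. STL1 was 1.46-fold and 2.09-fold higher as deposited. For STL1 the normalization mattered, because a new quantile normalization over the genes gave log2 differences of -0.03 and 0.53 in place of 0.54 and 1.07. The directions of the other 7 members, apart from STL1 and DAK1, were the same under both scalings. The DAK2 log2 differences were 2.15 and 2.13 after that normalization, in place of 2.54 and 2.61.

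**Figure D3:**
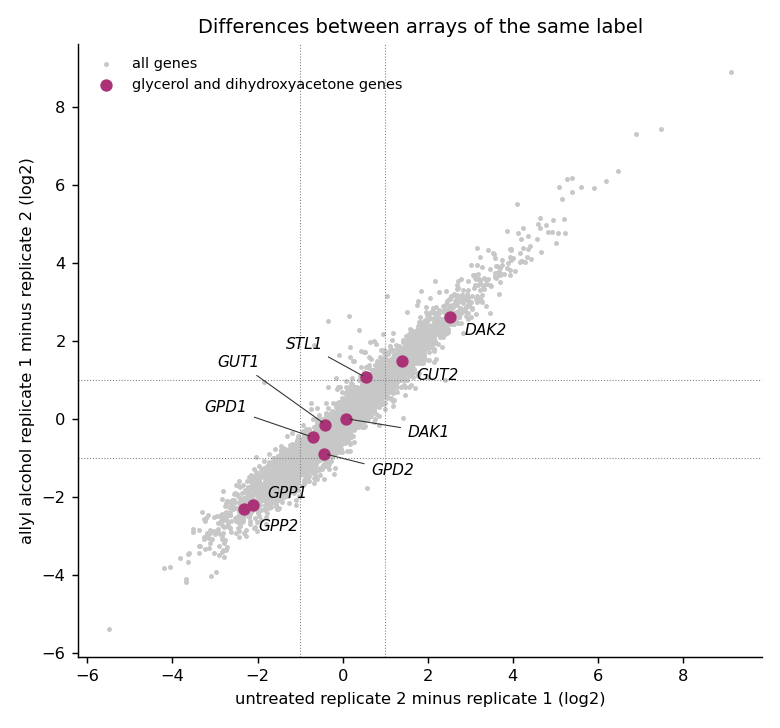
Log2 difference between the untreated arrays (x axis, replicate 2 minus 1) and between the allyl alcohol arrays (y axis, replicate 1 minus 2), with all 5449 genes in grey, the 9 genes in purple and dotted lines at 2-fold. Among the 9 genes, GPP1 and GPP2 lie lowest, near -2, DAK2 lies highest, above 2.5, and DAK1 lies near 0. Genes in grey extend further in both directions.

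These sizes are common on these arrays. GUT2 and DAK2 were the 2 of 9 members at least 2-fold higher in both labels, beside 18.6% of all genes, and GPP1 and GPP2 were the 2 of 9 at least 2-fold lower in both, beside 15.8%. Such shares are near those over all genes and are not particular to this pathway. Inside untreated, 4 of 9 members were at least 2-fold apart, beside 38% of all genes, and inside allyl alcohol 5 of 9, beside 40.8%. Among all genes DAK2 ranked at percentile 96.4 inside untreated and 95.8 inside allyl alcohol, and GUT2 at 86.5 and 86.7. GPP2 ranked at percentile 2.59 and 2.42 and GPP1 at 3.74 and 3.17. DAK1 was among the steadiest genes, since 98.3% of all genes had a larger SD between arrays of the same label.

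Between single arrays of different labels, the distance depended on which arrays were set side by side. Allyl alcohol replicate 2 and untreated replicate 1 differed by -0.21 to 0.27 over the 9 genes, and allyl alcohol replicate 1 and untreated replicate 2 by -0.19 to 0.31. No member was 2-fold apart in either pair, and 0.275% and 0.147% of all genes were. Same-numbered arrays differed far more, with 4 of 9 members at least 2-fold apart for replicate 1 and 4 of 9 for replicate 2, beside 39.5% and 39.7% of all genes. GPP1 in allyl alcohol minus untreated was -2.18 for replicate 1 and 2.12 for replicate 2, and DAK2 was 2.67 and -2.47. The sign of any difference by label therefore turned with the replicate number for these genes.

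Profiles of isoenzymes were compared as a description. The measure was the root mean square difference between log2 profiles over the 4 arrays, each centred on its own mean, and it depends on how wide the profiles are. It was 0.09 for GPP1 and GPP2 and 0.18 for GPD1 and GPD2, beside 1.27 for DAK1 and DAK2. The ranges over the arrays were 2.20 and 2.38 for the GPP pair, 0.70 and 0.89 for the GPD pair, and 0.16 and 2.67 for DAK1 and DAK2. The GPP pair is closely related in sequence, and signal shared between their probe sets was not tested. GUT1 and GUT2, which encode successive steps and not isoenzymes, stood 0.85 apart.

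Genes with the most similar profiles were sought for the 3 members of widest range, DAK2, GPP2 and GPP1, among 5300 other genes above background on all arrays. For DAK2 they were YLR406C-A, YJR056C and ASE1, a spindle midzone protein, at root mean square differences of 0.02, 0.03 and 0.05 over 4 arrays. GPP2 was closest to INO1, inositol 3-phosphate synthase, at 0.03, with SIL1, a nucleotide exchange factor of the endoplasmic reticulum, and GAP1, the general amino acid permease, at 0.04 each. INO1 had 14.19 and 11.82 in untreated and 11.78 and 14.04 in allyl alcohol arrays. GPP1 was closest to LDB7 at 0.02, and to PET494, a mitochondrial translation activator, and ODC1, a mitochondrial oxodicarboxylate carrier, at 0.03 each. With 4 arrays of which pairs were nearly alike, many genes share such a profile.

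Other genes of the pathway and its control were taken as 10 lists of 77 genes, of which 74 were measured. In limma 0 of the 74 passed in either direction and 0 had an unadjusted p under 0.05. The log2 differences by label ran from -0.45 for PAI3, a proteinase inhibitor gene, to 0.54 for AQY1, a spore aquaporin, which had a standard error of 0.73. Groups did not overlap for 7 of 74, against 5.23% of all genes. Between arrays of the same label, 10 of 74 were at least 2-fold higher in both labels and 8 of 74 lower, beside 18.6% and 15.8% of all genes.

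Glycerol export and its control came next. FPS1, the channel through which glycerol leaves the cell, had 10.53 and 10.75 in untreated and 11.04 and 10.56 in allyl alcohol arrays. Its differences inside the labels were 0.22 and 0.48, in the same order of arrays as above. RGC1, a positive regulator of that channel, had -1.07 and -0.76, and ASK10, its paralogue, had 0.31 and 0.03. AQY1, with the widest range of this list over the arrays, had 0.94 and 1.55. No gene of this list of 5 measured was 2-fold apart in one direction in both labels, beside 18.6% of all genes higher and 15.8% lower.

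The Hog1 pathway, which controls GPD1, GPP2 and STL1 under osmotic stress, held members of both directions. Of 16 measured genes 3 were at least 2-fold higher in both labels and 1 was lower, beside 18.6% and 15.8% of all genes. The higher ones were the phosphatase genes PTC1 (log2 differences of 1.90 and 2.30) and PTP2 (1.51 and 1.51), which act against Hog1, and STE11, a kinase upstream of it (1.47 and 1.36). HKR1, a membrane sensor, was lower at -1.96 and -2.35. Among 7 genes for factors that act with Hog1, MSN1 had 1.90 and 2.17, while HOT1, the activator of STL1, had 0.66 and 0.64. The stress factor gene MSN4 was lower, with -0.996 and -0.92, as was SMP1, with -0.61 and -0.68.

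Of the 9 regulators listed for GUT1, GUT2 and STL1, SIP4 and INO2 stood furthest apart. SIP4, an activator of gluconeogenic genes, had 7.57 and 10.07 in untreated and 9.81 and 7.20 in allyl alcohol arrays. INO2, an activator of phospholipid synthesis genes, had 10.53 and 7.70, and 7.56 and 10.55. SIP4 was thus high on the arrays where DAK2 and GUT2 were high, and INO2 on those where GPP1 and GPP2 were high. Such patterns were common, since 18.6% of all genes were at least 2-fold higher in both labels and 15.8% lower. A link between these regulators and the members was not tested. MIG1, the glucose repressor, had inside-label differences of 0.97 and 1.11, and CAT8, an activator of glucose-repressed genes, had 0.51 and 0.82.

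Enzymes beside the pathway were mixed. YIG1, whose product interacts with glycerol 3-phosphatase, was at least 2-fold higher in both labels, with log2 differences of 1.17 and 1.45. It was the only 1 of 6 in its list, beside 18.6% of all genes. BDH2 had 0.80 and 1.498, YPR1, an aldo-keto reductase, had 0.81 and 0.87, and BDH1, butanediol dehydrogenase, had -0.84 and -0.28. Among 3 mitochondrial NADH dehydrogenases NDE1, the external enzyme that oxidises cytosolic NADH beside GUT2, had -1.19 and -1.70. NDE1 thus went against GUT2, while NDE2 had -0.17 and -0.03 and NDI1 had -0.32 and -0.15.

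Lipid genes that use or release glycerol also went both ways. Of 4 acyltransferase and reductase genes that take glycerol 3-phosphate or dihydroxyacetone phosphate into lipids, AYR1 was lower at -1.23 and -1.32, whereas GPT2 had 0.89 and 1.46, SCT1 had 0.51 and 0.74, and SLC1 had 0.05 and -0.003. Among 8 genes listed with glycerol release from lipids, 3 were at least 2-fold lower in both labels, beside 15.8% of all genes. GIT1, which encodes the glycerophosphoinositol transporter and not a lipase, had -2.74 and -2.52. The lipase genes TGL4 and TGL5 had -1.22 and -1.29, and -1.02 and -1.29. PGC1, a phosphatidylglycerol phospholipase, had 0.63 and 0.71.

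The triose phosphate enzymes that supply and drain dihydroxyacetone phosphate had log2 signals between 13.67 and 14.67, close to the highest value in the table, 14.75. Of 5 measured, 0 were 2-fold apart in both labels, and whether signal near the top of the scale hides a difference was not tested. FBA1, aldolase, had -0.27 and -0.12, TPI1, triose phosphate isomerase, had -0.15 and -0.06, and TDH3 had -0.03 and 0.05. TDH1, the glyceraldehyde 3-phosphate dehydrogenase associated with stress, had -0.52 and -0.50. Of 11 other osmostress genes measured, 4 were at least 2-fold higher in both labels and 1 lower, beside 18.6% and 15.8% of all genes. By sign alone, 6 of the 11 were higher in both labels and 5 lower. The genes past 2-fold included SIP18 at 2.27 and 2.79, GRE2, a methylglyoxal reductase, at 1.55 and 1.62, and CIN5 at 1.27 and 1.80. PAI3 was the lower gene, at -1.64 and -1.88.

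**Figure D4:**
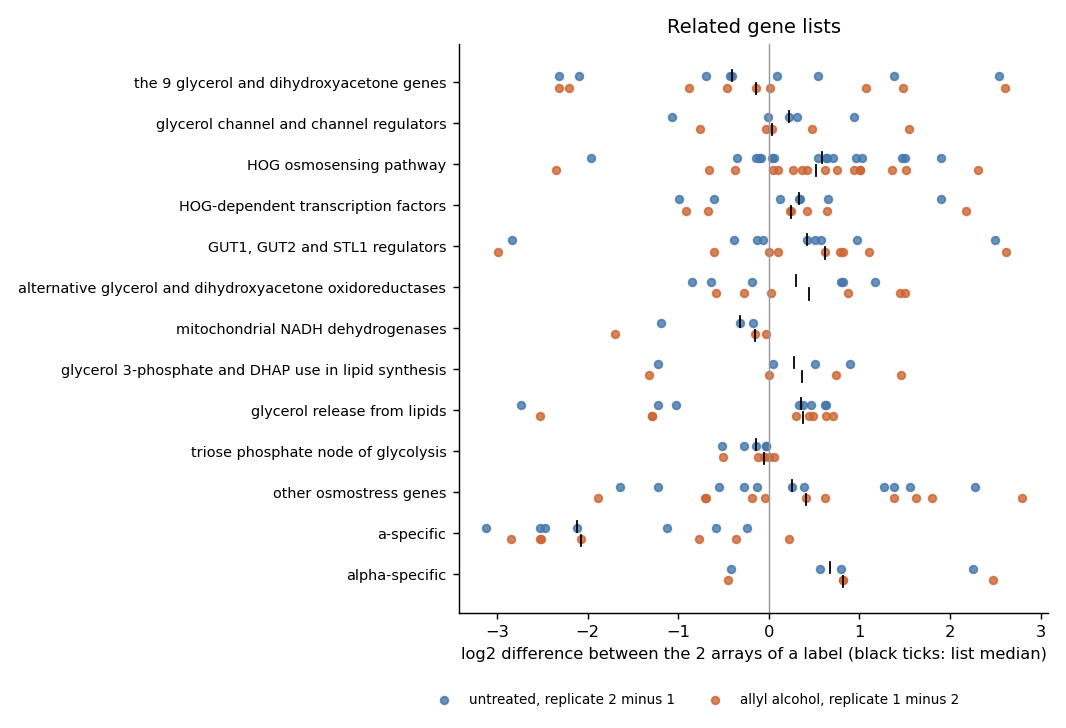
Log2 difference between the 2 arrays of a label (x axis) for each measured gene of the glycerol set, 10 related lists and the mating type markers; blue is untreated replicate 2 minus 1, orange is allyl alcohol replicate 1 minus 2, and black ticks are medians. The glycerol set spans both directions with medians of -0.40 and -0.14, and the a-specific markers lie lowest with medians of -2.12 and -2.07.

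Markers of cell type, apart from ASG7, and of array quality moved with the same split of arrays. The cultures are labelled MATa, and all 7 a-specific markers were above background on all arrays. Their summed signal, on the log2 scale, was 15.41 and 13.62 on untreated replicates 1 and 2 and 13.78 and 15.37 on allyl alcohol replicates 1 and 2. Of the 7, 4 were at least 2-fold lower in both labels, namely STE2, BAR1, MFA2 and STE6, beside 15.8% of all genes. MFA1 had -1.13 and -0.77 and AGA2 had -0.585 and -0.37, while ASG7 had -0.24 and 0.22 and did not follow the split. The 4 alpha-specific markers were also above background on all arrays, a cutoff that 97.4% to 99.4% of all genes passed on each array. Their summed signals were 11.12 and 12.52 in untreated and 12.57 and 11.04 in allyl alcohol arrays. SAG1, the alpha-agglutinin, had the widest difference of these at 2.26 and 2.48, while STE3, the a-factor receptor, had -0.42 and -0.45. The median signal of 12 poly-A control probe sets, which read RNA added at labelling, was 8.53 and 9.34 in untreated and 9.55 and 8.30 in allyl alcohol arrays. As a check on intact RNA, the ACT1 probe set at the 3′ end exceeded that at the 5′ end by 0.18 to 0.27 on the 4 arrays. The part of these markers in the differences of the glycerol genes was not tested.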

How the data were processed

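Total RNA from 4 cultures was labelled with biotin, per the labels. The deposited values are log2 RMA signals per probe set, made by the authors with RMA in Affymetrix Expression Console, per the submitters' processing notes. For RMA, version and settings were not given in the sources used here. All deposited values lay between 2.78 and 14.75, a log2 range. RMA brings arrays to one distribution, so a change in total mRNA is partly removed. Precision is limited by the number of arrays, 4.

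Probe sets were named through the platform annotation and the RefSeq gene table of assembly R64; 5498 of 10928 matched an S. cerevisiae gene. The brightest probe set stood for each of 5449 genes. Background was the 95th percentile of 1746 probe sets with names outside that table, between 5.28 and 5.64 on the 4 arrays. Of the genes, 97.4% to 99.4% were above it.

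Groups followed the labels. The comparison used limma 3.58.1 in R 4.3.3 (lmFit and eBayes, no block), tested on simulated data. The simulated noise was independent between arrays, without a split inside groups. It was also smaller than the median pooled SD of these arrays, 0.55, so that test does not show how limma performs on them. The members and lists were chosen with earlier results of these data known. All 9 members were named, up to 4 genes of each related list by range over the arrays, and the 3 genes nearest in profile to each of the 3 members of widest range. YFL054C, TDH2 and ENA1 were not analysed here. Alternatives were other scalings, filters, probe set rules, an intensity trend, a replicate block and leaving out each array. Sequences were not used here.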

Additional observations from a re-analysis of the deposited data

How the results depend on the processing

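Under every alternative run, limma called 0 genes and 0 glycerol members. At an unadjusted p under 0.05 there were 0 genes in each, apart from 1 of 8968 when every probe set was tested and 188 with the crossed block. With all 4 arrays kept, 63 of 63 recomputed member differences had the direction given above. Only the new quantile normalization and the centring on medians could change these values. The other settings leave a difference of group means as it was for genes with 1 probe set. For arrays that share a number, the correlation across genes of deviations from the group mean was -0.973. That value restates the split of arrays inside the labels. It cannot show whether cultures that share a number were paired, because the labels are in doubt. A replicate block by number led to 0 genes and 0 members called and a median member difference of -0.03. With a block that pairs the arrays crosswise, chosen after seeing the data, 0 genes and 0 members were called.

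Leaving out each array in turn changed the direction for 8 of the 9 members, and 0 members were called. The log2 difference ranged from -0.26 to 0.43 for GPD1, -0.40 to 0.49 for GPD2, -1.14 to 1.07 for GPP1, -1.22 to 1.10 for GPP2, -0.26 to 0.14 for GUT1, -0.82 to 0.66 for GUT2, -0.49 to 0.58 for STL1 and -1.20 to 1.40 for DAK2. DAK1 kept its direction, from -0.16 to -0.07. The members' median ranged from -0.17, without untreated replicate 2, to 0.14, without untreated replicate 1. Each of these fits sets a high and a low array against 1 array, which fixes the direction for genes that split inside the labels. Inside the labels, 52 of 54 recomputed values had the same sign, and the others were STL1 and DAK1. Values from the mean over probe sets were unchanged by construction, since each member had 1 probe set.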

Other observations

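The genes on either side of each glycerol gene, in the gene order of RefSeq assembly R64, were looked at after the values of the 9 were seen. Of 18 such neighbours 14 were measured, and all 14 are given as log2 differences, untreated replicate 2 minus 1 and then allyl alcohol replicate 1 minus 2. Beside GUT1, at -0.40 and -0.14, RPL8A, a ribosomal protein gene, had -2.19 and -1.82 and GOS1 had -0.22 and -0.09. Beside GPP1, at -2.10 and -2.20, RPL34B had -1.86 and -1.37. Beside GPP2, at -2.32 and -2.31, CEM1 had -0.67 and -0.67 and THO1 had -1.004 and -1.09. Beside GPD1, at -0.70 and -0.46, GPM2 had -1.42 and -0.74, and beside GPD2, at -0.43 and -0.89, MAM3 had 0.65 and 0.83 and ARG1 had -0.39 and -0.40. Beside GUT2, at 1.39 and 1.48, UBP7 had 0.42 and 0.64. Beside STL1, at 0.54 and 1.07, FIT1 had 0.93 and 1.04 and PAD1 had -0.89 and -1.33. Beside DAK2, at 2.54 and 2.61, ZNF1, a regulator of respiratory growth, had 1.03 and 1.70. Beside DAK1, at 0.09 and 0.01, COG8 had 0.11 and -0.14 and POB3 had 1.19 and 1.29. Neighbours thus included genes with the sign of the glycerol gene and genes with the opposite sign. These are values for single arrays and carry no test.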
